A study of Mus musculus with 14 samples.

Results

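Messenger RNA of the proteins of the mitochondrial ribosome was measured in the kidneys of mice injected with 2 protein nanocages. The members are the 77 genes whose symbol is Mrpl or Mrps followed by a number and at most 1 of the letters a to c, out of 24421 genes in the table. They were chosen by symbol and selected on 1 measured value, a floor of 10 counts in at least 2 libraries. No member was removed by that floor, since the lowest count of any member in any library was 134, for Mrpl23, so there is no member just outside it. The rule itself reads no difference between groups, but the members were picked as a set with earlier results of these data known. Of the 77 genes, 48 carry large subunit symbols (Mrpl) and 29 small subunit symbols (Mrps), and all 77 passed the filter on low counts that kept 14854 genes for testing.

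All 14 libraries came from kidneys of male C57BL/6J mice. Control mice received vehicle (3 libraries, with no time point in the labels). The others received Dps or MnDps at 18 mg/kg into a vein. Kidneys were taken 4 h after Dps (3 libraries), 24 h after Dps (3), 4 h after MnDps (3) and 24 h after MnDps (2). The labels spell out neither name and do not say what, apart from the name, sets MnDps apart from Dps. They describe no genetic change in any group. They do not say whether each library is a separate animal, so the spread behind every p-value is that of these libraries and may be technical.

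Mitochondria make a small set of respiratory chain subunits on ribosomes of their own. The ribosomal RNA of these particles is encoded in mitochondrial DNA, whereas every protein of them is encoded in the nucleus, translated in the cytosol and imported. Some of the proteins have a counterpart in the bacterial ribosome and others were added during evolution of mitochondria. The proximal tubule of the kidney is rich in mitochondria, which power the reabsorption of filtered solutes. The transcription factors NRF1, GABP (of the ETS family) and YY1 are known to bind promoters of nuclear genes for mitochondrial proteins.

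The promoters of the members were read for these factors' motifs. RefSeq windows on the GRCm38.p6 build, from 250 bases before to 50 after an annotated start, were found for 68 of the 77 members (74 windows, since some genes have more than 1 start). The motifs searched on both strands were CATGCGC for NRF1, CCGGAAG for ETS factors and ATGGCGG for YY1, and no match of one overlapped a match of another in these windows. The ETS motif stood in 25 of the 74 windows (33.8%), against 8.86% of all 32851 windows of this length. Those windows were not limited to genes tested in these kidneys, whereas all members were tested. The YY1 motif stood in 13 (17.6%, against 4.06%) and the NRF1 motif in 8 (10.8%, against 3.91%). Except in Mrps11 and Mrps2, the YY1 matches were on the gene's strand, from base 3 (Mrps5) to base 31 (Mrpl50). The YY1 motif begins with the letters ATG, and its overlap with start codons was not tested. Of the 68 members, 32 had none of the 3 motifs, 27 had 1, 8 had 2 and 1 had all 3. That member is Mrpl22. A match is a description of letters and not of a bound site. The windows of 4 members are printed in the direction of the gene, with the motif matches in capitals. Mrpl22 is printed for its 3 matches, and Mrpl51, Mrps16 and Mrps12 because they carry main results on levels. The Mrpl22 window is chr11:58171414-58171713 (plus strand), with an ETS match whose first base is 53 bases before the start, an NRF1 match on the other strand 33 bases before it and a YY1 match at base 23. The Mrpl51 window is chr6:125191950-125192249 (plus strand), with an ETS match 90 bases before the start. The Mrps16 window is chr14:20393441-20393740 (minus strand), with ETS matches on the other strand 74 bases before the start and at base 25. The Mrps12 window is chr7:28741772-28742071 (minus strand), with an ETS match at base 2.
Mrpl22: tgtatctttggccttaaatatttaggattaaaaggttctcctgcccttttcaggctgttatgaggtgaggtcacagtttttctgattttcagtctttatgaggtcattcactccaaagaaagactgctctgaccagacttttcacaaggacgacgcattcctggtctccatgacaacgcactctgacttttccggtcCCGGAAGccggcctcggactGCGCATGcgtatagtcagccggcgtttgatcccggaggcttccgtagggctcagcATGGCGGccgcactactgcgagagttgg
Mrpl51: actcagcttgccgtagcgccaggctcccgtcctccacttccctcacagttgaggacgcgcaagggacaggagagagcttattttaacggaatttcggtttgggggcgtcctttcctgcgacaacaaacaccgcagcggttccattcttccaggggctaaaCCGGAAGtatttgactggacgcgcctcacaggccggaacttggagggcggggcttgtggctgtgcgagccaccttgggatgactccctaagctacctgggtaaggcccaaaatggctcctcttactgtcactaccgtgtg
Mrps16: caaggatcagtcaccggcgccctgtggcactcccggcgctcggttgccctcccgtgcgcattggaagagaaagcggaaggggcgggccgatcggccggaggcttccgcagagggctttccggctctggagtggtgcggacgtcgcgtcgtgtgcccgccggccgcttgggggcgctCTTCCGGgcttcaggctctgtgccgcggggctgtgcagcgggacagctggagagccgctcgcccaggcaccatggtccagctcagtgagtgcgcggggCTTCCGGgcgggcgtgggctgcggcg
Mrps12: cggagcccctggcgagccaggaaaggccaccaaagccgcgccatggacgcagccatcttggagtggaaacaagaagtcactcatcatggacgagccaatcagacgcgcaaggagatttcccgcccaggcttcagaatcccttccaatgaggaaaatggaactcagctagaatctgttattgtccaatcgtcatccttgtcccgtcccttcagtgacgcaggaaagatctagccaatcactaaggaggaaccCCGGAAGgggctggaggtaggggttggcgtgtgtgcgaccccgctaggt

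Some facts of the whole series bear on every value below. Libraries held 15097093 to 42074942 counts, and the biological coefficient of variation over all genes was 10.7%. Fold changes followed transcript length across all genes. In MnDps against Dps at 4 h, Spearman's rho between log2 fold change and the length of the principal transcript was −0.65 over 14328 genes, which are not independent replicates. Members have short transcripts, with a median of 1288 bases (418 to 7300) against 2921 for all tested genes, so the trend bears on them. Each count of members is therefore given as fitted and again from a corrected fit, from which each library's own trend with length and GC content was taken out. The tissue label was checked against 10 genes of the proximal tubule, and none of the 10 was at 0 in any group. Their summed level was 52600 to 55500 CPM in controls, 45800 to 51500 after Dps at 4 h, 58500 to 71500 after MnDps at 4 h, 53300 to 66700 after Dps at 24 h and 48500 to 56200 after MnDps at 24 h. As for the members, the range of this sum lay below the controls after Dps and above them after MnDps at 4 h. Most genes of the list did not follow the sum after MnDps. Against control, 1 was higher and 6 lower after MnDps at 4 h (median log2 fold change −0.32), and none higher and 3 lower after Dps at 4 h. Among all tested genes 22.9% were higher and 22.7% lower after MnDps, and 8.33% and 6.27% after Dps. In MnDps against Dps at 4 h, 3 were higher and 3 lower (20.8% and 20.7% of all tested genes). The sum of 6 neutrophil genes was 0.688 to 1.48 CPM in controls, 5.31 to 7.63 after Dps at 4 h and 10.5 to 18.4 after MnDps at 4 h. That of 7 endothelial genes was 343 to 395 CPM in controls, 221 to 290 after Dps and 210 to 266 after MnDps at 4 h, and that of 7 macrophage genes 113 to 136, 92 to 102 and 90.6 to 101. At 24 h the macrophage sum was 166 to 181 after Dps and 173 to 178 after MnDps. The endothelial sum was then 395 to 474 after Dps and 452 to 504 after MnDps, and the neutrophil sum 1.44 to 2.82 and 1.32 to 1.56. The sum of 5 collecting duct genes was 408 to 535 CPM in controls, 354 to 441 after Dps at 4 h and 508 to 650 after MnDps at 4 h. At 24 h it was 709 to 778 after Dps and 698 to 882 after MnDps. Of the 5, 3 were higher and 1 lower in MnDps against Dps at 4 h. The sum of 5 genes of the thick ascending limb was 5410 to 6780 CPM in controls, 4430 to 5250 after Dps and 4210 to 5150 after MnDps at 4 h. It was 3750 to 4660 after Dps and 3340 to 3910 after MnDps at 24 h. That of 6 adipocyte genes was 44.6 to 82.5 CPM in controls, 129 to 171 after Dps and 103 to 168 after MnDps at 4 h. The sum of 5 podocyte genes was 363 to 365, 307 to 372 and 297 to 335 CPM in the same 3 groups. At 24 h the adipocyte sum was 104 to 170 after Dps and 57 to 147 after MnDps, and the podocyte sum 275 to 327 and 283 to 323. The sum of 5 hepatocyte genes was 1870 to 2040 CPM in controls, 1670 to 2450 after Dps and 1860 to 2560 after MnDps at 4 h. At 24 h it was 1690 to 2120 after Dps and 1650 to 1730 after MnDps, and none of the 5 was called against control then. The part of these shifts in the values below was not tested. In whole kidney a change in the number of cells of a type and a change in RNA per cell cannot be told apart.

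Per kilobase of principal transcript, the members spanned levels from 4.79 to 199 CPM per kb over all libraries, with a median of 34.4. Mrpl12 was the highest at 199 CPM per kb. Its protein sits in the stalk of the large subunit and is also known to bind the mitochondrial RNA polymerase. Mrps21 (178), Mrpl42 (164), Mrpl20 (125) and Mrpl54 (103) followed it, and Mrpl1 (9.32), Mrpl17 (8.74), Mrps25 (5.88), Mrpl47 (5.66) and Mrpl19 (4.79) were lowest. The lowest 5 include members with long annotated transcripts, such as Mrpl17 (7300 bases) and Mrps25 (6073 bases), and where the kidney uses a shorter transcript than the annotated one the level per kb is understated. Among the highest, Mrpl42 has a principal transcript of 666 bases and a longest of 3277. Where the kidney uses a longer transcript than the principal one the level per kb is overstated.

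The summed level of all 77 members separated the 4 h groups from the controls in opposite directions. Libraries are numbered within their group in the order of their records, since the labels number none, and a number pairs no libraries across groups. In the controls the sum was 3967, 4347 and 3762 CPM in replicates 1, 2 and 3, which is 0.376% to 0.431% of all counts. After Dps at 4 h it was 3473, 3585 and 3471 CPM, below every control. After MnDps at 4 h it was 4657, 5084 and 5894 CPM, above every control. Both 24 h groups were also above every control, with 4965, 4910 and 4665 CPM after Dps and 4495 and 4362 CPM after MnDps. The group means were 4025 ± 297 (SD) for the controls, 3510 ± 65 for Dps at 4 h, 5211 ± 628 for MnDps at 4 h, 4847 ± 160 for Dps at 24 h (n = 3 each) and 4428 ± 93.7 for MnDps at 24 h (n = 2). In the corrected fit the means were 4406 ± 159, 3760 ± 5.28, 4679 ± 331, 4663 ± 107 and 4373 ± 23.2 CPM in the same order, so that Dps at 4 h remained below every other group while MnDps at 4 h ran from 4330 to 4988 and overlapped the controls at 4265 to 4579.

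**Figure D1:**
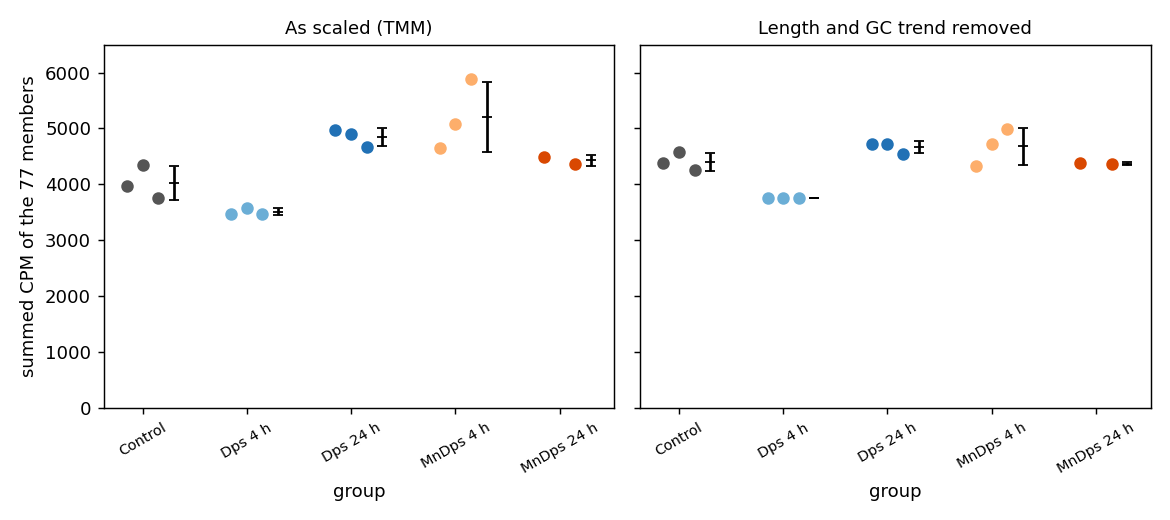
Summed level of the 77 members (CPM, vertical axis from 0) in each library (points) of the 5 groups, with group mean and SD as bars, as scaled (left) and with the length and GC trend removed (right). The 3 libraries of Dps at 4 h are the lowest in both panels, and MnDps at 4 h stands above the controls on the left and overlaps them on the right.

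In MnDps at 4 h and in the controls, single libraries were high or low for most members. Replicate 3 of MnDps at 4 h was the highest of its group for 73 of 77 members, and replicate 1 the lowest for 71. Among the controls, replicate 2 was the highest for 59 members and replicate 3 the lowest for 59. In Dps at 4 h no library stood out in this way, with replicates 1, 2 and 3 the highest for 16, 40 and 21 members. In Dps at 24 h replicate 3 was the lowest for 55, and in MnDps at 24 h replicate 1 was the higher for 52. The median coefficient of variation of a member was 12.2% within MnDps at 4 h and 9.20% within the controls, against 4.39% for Dps at 4 h, 4.45% for Dps at 24 h and 4.20% for MnDps at 24 h. Replicate 3 of MnDps at 4 h also had the most negative rho between a gene's deviation from the mean of all libraries and its transcript length (−0.52 over all genes), and replicate 3 of the controls the most positive (0.47). Replicates 1, 2 and 3 of Dps at 4 h were close to the latter, at 0.46, 0.42 and 0.44.

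**Figure D2:**
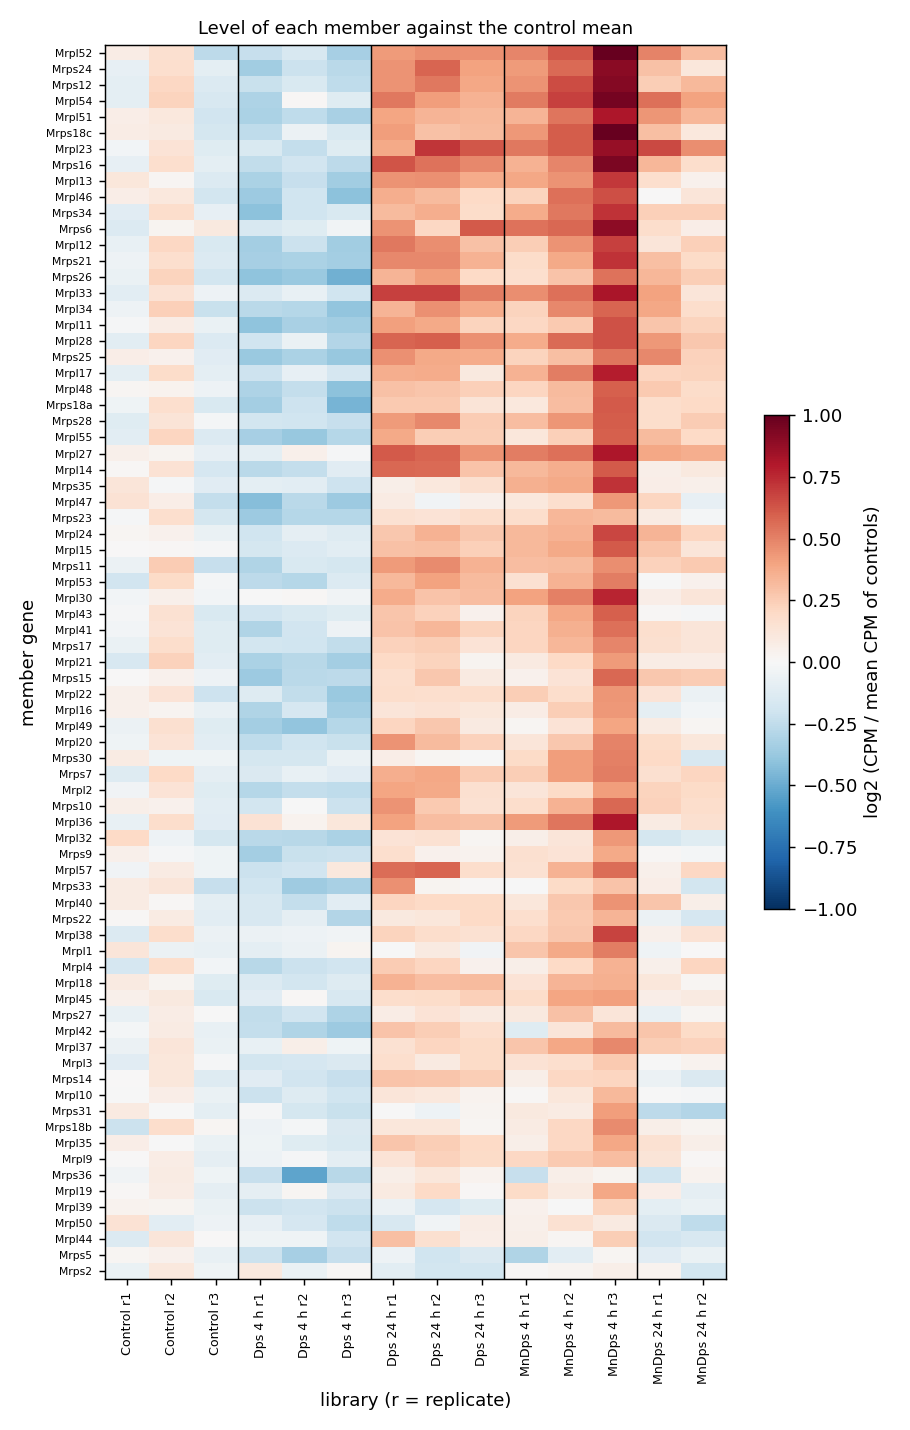
Log2 ratio of each member's CPM to its control mean (colour, from −1 in blue to 1 in red) in the 14 libraries (columns, by group) for the 77 members (rows). The Dps 4 h columns are mostly blue, the MnDps 4 h and Dps 24 h columns mostly red, and replicate 3 of MnDps at 4 h is the reddest column.

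The comparison of Dps at 4 h with control shows the early state after the first nanocage. Levels of the members were slightly lower after Dps: 75 of 77 log2 fold changes were negative, with a median of −0.20 against −0.02 for all tested genes. By the quasi-likelihood test of edgeR, with p-values adjusted by Benjamini and Hochberg over all tested genes, 13 members fell and none rose, where 6.27% of all tested genes were lower and 8.33% higher. After correction 38 fell and none rose (17.5% lower and 8.19% higher among all tested genes), the 13 among them. The corrected median was −0.23, against −0.09 for all tested genes. For 41 members the libraries of both groups did not overlap, as for 34.7% of all genes in either direction.

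Mrps26, a small subunit protein with no bacterial counterpart, had the largest fall. Its level was 57.1, 69.5 and 52.4 CPM in controls and 45.2, 46.1 and 42.8 after Dps. The groups did not overlap, and the log2 fold change was −0.41 ± 0.11 (SE; edgeR adjusted p = 0.0165; −0.50 corrected). Mrpl11, whose bacterial counterpart belongs to the GTPase centre of the ribosome, went from 48.2, 50.9 and 46.3 to 36.7, 38.8 and 38.2 CPM (−0.35 ± 0.10, edgeR adjusted p = 0.0224; −0.43 corrected). Every library after Dps was lower than every control. Mrps25, in the small subunit (chr6:92169525-92184033, minus strand, GRCm38), went from 33.3, 32.7 and 29.3 to 24.5, 25.5 and 24.4 CPM (−0.35 ± 0.09, edgeR adjusted p = 0.0184; −0.44 corrected), again without overlap. The remaining members that fell were Mrps36, Mrpl49, Mrpl48, Mrps23, Mrpl42, Mrpl13, Mrpl16, Mrps9, Mrps5 and Mrps27, at −0.34 to −0.24. Mrpl36 had the highest value, 0.10 ± 0.10 (edgeR adjusted p = 0.545). Single libraries decided this count: 6 members fell without control replicate 1, none without control replicate 2, 16 without control replicate 3, and 1, 1 and none without replicates 1, 2 and 3 of Dps at 4 h. None fell with a term for the 3 libraries of more than 30000000 counts, 2 of which are of this group, and no named member of this comparison kept its call without each library in turn.

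The comparison of MnDps at 4 h with control asks the same of the second nanocage. Levels were higher: 57 members rose and none fell in edgeR's test, where 22.9% of all tested genes were higher and 22.7% lower. The median log2 fold change was 0.36, against 0.00 for all tested genes, and 51 members did not overlap between the groups (51.9% of all genes). In the corrected fit 19 rose and 8 fell (16% and 21.8% of all genes) with a median of 0.04, against −0.04 for all genes. The 8 were Mrpl44, Mrpl42, Mrps36, Mrpl2, Mrpl21, Mrps15, Mrpl20 and Mrpl4, from −0.51 for Mrps36 to −0.19 for Mrpl21. Of the 57, 17 rose in both fits, 2 fell in the corrected fit (Mrpl2 and Mrpl20) and 19 others had the opposite sign there without passing. This comparison and that of Dps share the 3 control libraries, so a control that is high or low for the members enters both.

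Mrpl52 (chr14:54426909-54429756, plus strand), which has the shortest transcript of the members at 418 bases, had the largest rise as fitted. Its level was 31.9, 33.8 and 25.2 CPM in controls and 42.6, 46.5 and 72.8 after MnDps (0.84 ± 0.16, edgeR adjusted p = 0.00105), and the groups did not overlap. In the corrected fit it was 0.28 ± 0.11 (edgeR adjusted p = 0.0585), so its call was lost there. Mrps12, the counterpart of the bacterial protein S12 of the decoding centre, went from 34.8, 43.1 and 33.8 to 50.9, 58.5 and 70.5 CPM (0.69 ± 0.11, edgeR adjusted p = 0.000166), and its corrected value was 0.17 ± 0.07 (edgeR adjusted p = 0.0448). Mrpl54 (0.73), Mrps18c (0.73), Mrpl23 (0.68), Mrps6 (0.67), Mrps24 (0.65) and Mrpl27 (0.63) were the other large rises. Of these only Mrps18c passed in the corrected fit (0.24), besides Mrps12.

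Of the 17 members that rose in both fits, 11 have transcripts above 3421 bases. Mrpl15, in the large subunit, was at 39.4, 39.6 and 38.9 CPM in controls and 49.1, 50.96 and 60.2 after MnDps (0.44 ± 0.08, edgeR adjusted p = 0.000468; 0.58 corrected). Its controls lay within 1 CPM of each other and every treated library was above them. Mrpl51, a large subunit protein, went from 104, 107 and 86.8 to 126, 144 and 174 CPM (0.58 ± 0.10, edgeR adjusted p = 0.000409; 0.62 corrected). Mrps25, lower after Dps, was at 37.0, 39.1 and 45.9 CPM after MnDps (0.36 ± 0.09, edgeR adjusted p = 0.00535; 0.68 corrected), above every control. Mrps35 (0.50), Mrpl1 (0.39), Mrpl48 (0.39), Mrps17 (0.35), Mrpl17 (0.56), Mrps30 (0.38) and Mrps16 (0.62) complete the 10 with the smallest corrected adjusted p, and their corrected values ran from 0.42 for Mrps30 to 0.99 for Mrpl17.

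MnDps was then set against Dps at 4 h, which uses no control library. All 77 members had a positive log2 fold change, with a median of 0.55 against −0.01 for all tested genes. In edgeR's test 74 rose and none fell, where 20.8% of all tested genes were higher and 20.7% lower. The libraries of 74 members did not overlap, as for 53% of all genes. Corrected for length and GC content, 43 rose and none fell (13.7% and 8.88% of all genes), 42 of them the same members. The corrected median was 0.25, against 0.03 for all genes. The 3 members that did not pass as fitted were Mrpl44 (0.20), Mrps5 (0.14) and Mrps2 (0.01), and Mrps5 rose in the corrected fit (0.38, edgeR adjusted p = 0.00875). Between 68 and 74 members rose when each of the 6 libraries was left out in turn, the fewest without replicate 3 of MnDps at 4 h.

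Mrpl52 differed most as fitted, with 25.8, 27.2 and 24.1 CPM after Dps against 42.6, 46.5 and 72.8 after MnDps (1.06 ± 0.16, edgeR adjusted p = 0.000215; 0.51 corrected). The highest library, replicate 3 of MnDps, stood apart from its other 2. Mrps12 was at 32.0, 33.6 and 31.1 CPM after Dps (0.89 ± 0.11, edgeR adjusted p = 7.12e-05; 0.38 corrected), below every MnDps library. Mrpl51 was at 79.8, 83.4 and 79.1 CPM after Dps (0.87 ± 0.10, edgeR adjusted p = 7.12e-05), and it rose in the corrected fit too (edgeR adjusted p = 0.000169). In Mrps25 the difference was 0.71 ± 0.09 (edgeR adjusted p = 7.34e-05; 1.12 corrected). The largest corrected difference was that of Mrpl17, at 1.23 ± 0.19 against 0.71 as fitted. Of the 25 named members called here, 23 kept their call without each library in turn. Members with an ETS motif in a window had a median of 0.65 (25 members) and those with a window but no such motif 0.51 (43 members), and corrected the medians were 0.25 and 0.24. The other motifs ran the other way as fitted. Medians were 0.42 with and 0.56 without the NRF1 motif (8 and 60 members; 0.17 and 0.24 corrected) and 0.42 with and 0.56 without the YY1 motif (13 and 55 members; 0.15 and 0.25 corrected). These differences were not tested.

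**Figure D3:**
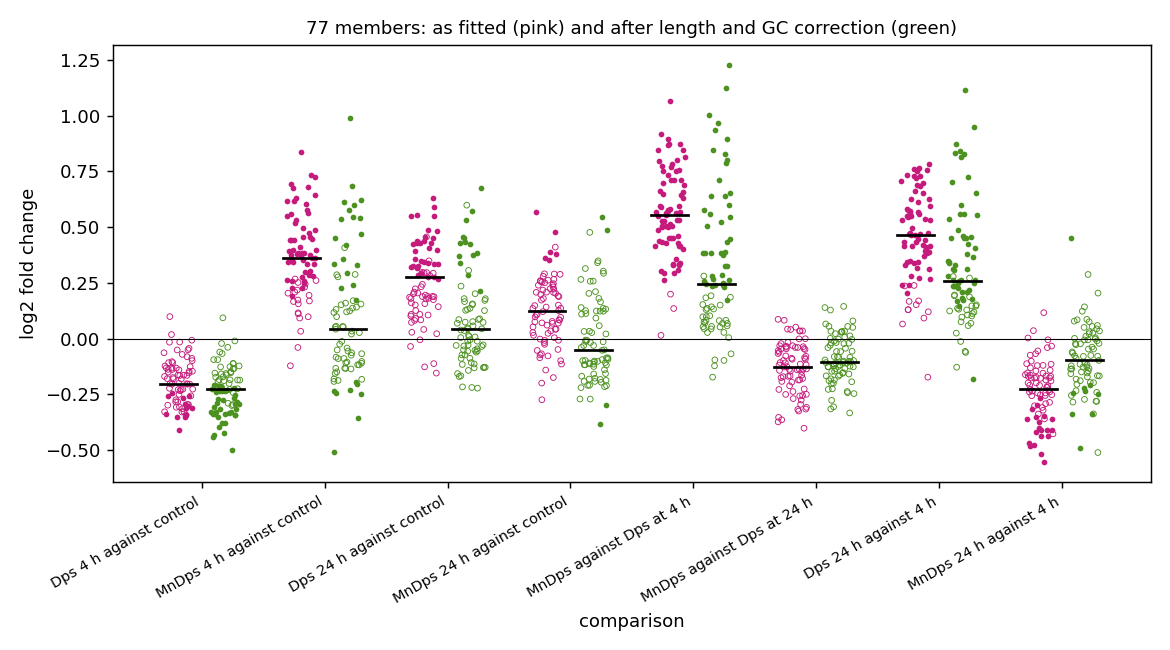
Log2 fold change (vertical axis) of each of the 77 members in 8 comparisons (horizontal axis), as fitted (pink) and in the corrected fit (green). Filled points passed an adjusted p of 0.05, open points did not, and bars are medians: 0.36 and 0.04 for MnDps 4 h against control, 0.55 and 0.25 for MnDps against Dps at 4 h.

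At 24 h both nanocages were compared with the same controls. After Dps 33 members rose and none fell (edgeR; 9.64% higher and 10.4% lower among all tested genes), with a median log2 fold change of 0.27 against 0.00 for all genes, and the libraries of 50 members did not overlap (38.2% of all genes). After correction 14 rose and none fell (4.03% and 5.12%), with a median of 0.04 against −0.005 for all genes, and 11 rose in both. Mrpl33, a small large subunit protein with a bacterial counterpart, rose most, from 27.5, 32.9 and 28.6 to 47.7, 47.5 and 42.4 CPM (0.63 ± 0.11, edgeR adjusted p = 0.00239; 0.34 corrected). Mrps16, whose mutation causes a respiratory chain disease in humans, went from 38.0, 45.1 and 37.6 to 62.0, 58.5 and 56.1 CPM (0.55 ± 0.12, edgeR adjusted p = 0.00739; 0.57 corrected). Neither gene's groups overlapped. Mrps25, at 43.7, 41.2 and 41.1 CPM, was above the controls too (0.41 ± 0.09, edgeR adjusted p = 0.00864; 0.67 corrected), although the call was lost without control replicate 3 (0.35, edgeR adjusted p = 0.0599). The count was 13 without control replicate 1, 7 without control replicate 3, 14 without Dps 24 h replicate 1 and 10 without replicate 2, and 18 once depth was a term, control replicate 3 being 1 of the 3 deep libraries.

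After MnDps at 24 h, 6 members rose and none fell (edgeR; 4.93% higher and 8.39% lower among all tested genes), with a median of 0.13 against 0.02 for all genes, and 29 did not overlap (45.2% of all genes). The 6 were Mrpl23 (0.57 ± 0.14), Mrpl54 (0.48 ± 0.13), Mrpl51 (0.39 ± 0.11), Mrpl27 (0.38 ± 0.09), Mrps25 (0.36 ± 0.10) and Mrpl28 (0.35 ± 0.11), with edgeR adjusted p between 0.0177 and 0.0477. In the corrected fit 2 rose, Mrps25 and Mrpl51, and 2 fell (1.99% and 5.4% of all genes). The corrected median was −0.05, against −0.03 for all genes. Those that fell were Mrpl44 (−0.38, edgeR adjusted p = 0.0104) and Mrps31 (−0.30, edgeR adjusted p = 0.0415). Mrpl51 was at 135 and 125 CPM and Mrps25 at 44.4 and 37.3 CPM, all above the controls. The count fell to 1 without control replicate 1, to none without control replicate 3 or MnDps 24 h replicate 1 and to 1 without MnDps 24 h replicate 2, and rose to 12 without control replicate 2. It was 1 with depth as a term. A lone remaining library of MnDps at 24 h was assumed to vary like the other groups. None of the 6 kept its call without each library in turn.

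Set against each other at 24 h, MnDps and Dps gave no member called in either direction by edgeR (0.148% of all tested genes higher and 0.666% lower), with 14 members at an unadjusted p under 0.05. DESeq2 called 3 lower and limma voom 5. The median log2 fold change was −0.13, 69 of 77 values were negative, and 41 members did not overlap (38.1% of all genes). None passed in the corrected fit either (0.101% of all genes higher and 0.848% lower), whose median was −0.10. The medians of all tested genes were 0.002 as fitted and −0.02 corrected. Mrpl44 had −0.35 ± 0.10 (edgeR adjusted p = 0.101), with 57.9, 52.4 and 49.1 CPM after Dps and 41.2 and 42.0 after MnDps. Its product is an RNase-like protein of the large subunit. These groups hold 3 and 2 libraries, and a miss of the threshold does not show equal levels.

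From 4 h to 24 h most members rose after Dps, while 20 of 77 fell after MnDps. After Dps 66 rose and none fell (edgeR; 22% higher and 22.6% lower among all tested genes), with a median of 0.46, and 73 did not overlap (57.9% of all genes). After correction 51 rose and 1, Mrps2, fell (23.9% and 14.2%), with a median of 0.26. The medians of all tested genes were −0.01 as fitted and 0.07 corrected. Mrps16 rose from 33.9, 35.2 and 33.6 to 62.0, 58.5 and 56.1 CPM (0.78 ± 0.12, edgeR adjusted p = 0.000124; 0.87 corrected), and Mrps25 gave 0.76 ± 0.09 (edgeR adjusted p = 1.79e-05; 1.11 corrected). Mrpl12, the most abundant member, rose from 183, 199 and 181 to 332, 318 and 283 CPM (0.73 ± 0.11, edgeR adjusted p = 9.38e-05; 0.45 corrected). Between 60 and 65 members rose with each library left out.

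After MnDps 20 members fell from 4 h to 24 h and none rose (edgeR; 11.7% lower and 10.1% higher among all tested genes), with a median of −0.23, and 47 did not overlap (50.6% of all genes). Corrected for length and GC content, 8 fell and 1, Mrpl42, rose (11.1% and 9.67% of all genes), so that the share that fell was near that of all genes. The corrected median was −0.10. The medians of all tested genes were −0.01 as fitted and 0.0005 corrected. Mrps6 had the largest fall, from 104, 106 and 132 to 80.5 and 74.5 CPM (−0.55 ± 0.12, edgeR adjusted p = 0.00475; −0.34 corrected). Mrps35, a small subunit protein without a bacterial counterpart, went from 70.1, 71.0 and 90.3 to 57.1 and 56.8 CPM (−0.44 ± 0.11, edgeR adjusted p = 0.00797; −0.49 corrected). Both calls were lost without MnDps 24 h replicate 2 (−0.50 and −0.43, edgeR adjusted p = 0.0695 and 0.0711). The count was 32 without MnDps 4 h replicate 1, 12 without replicate 2 and 10 without replicate 3 of that group, and 10 and 3 without replicates 1 and 2 of MnDps at 24 h.

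The difference between these changes was tested as an interaction, the change from 4 h to 24 h after MnDps minus that after Dps. It rests on the same 4 h libraries as the comparisons of MnDps with Dps. It was lower for 73 members and higher for none (edgeR; 15.7% lower and 13.7% higher among all tested genes), with a median of −0.70. In the corrected fit it was lower for 38, all of them among the 73, and higher for none (10.8% and 4.49%), with a median of −0.30. The medians of all tested genes were 0.02 as fitted and −0.05 corrected. Mrps16 had −1.14 ± 0.18 (edgeR adjusted p = 0.000616; −1.15 corrected). Mrps12 had −1.06 ± 0.17 (edgeR adjusted p = 0.000531; −0.49 corrected) and Mrpl12 −1.02 ± 0.17 (edgeR adjusted p = 0.000617; −0.61 corrected). Mrpl39, Mrps18b, Mrps2 and Mrps5 did not pass as fitted.

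**Figure D4:**
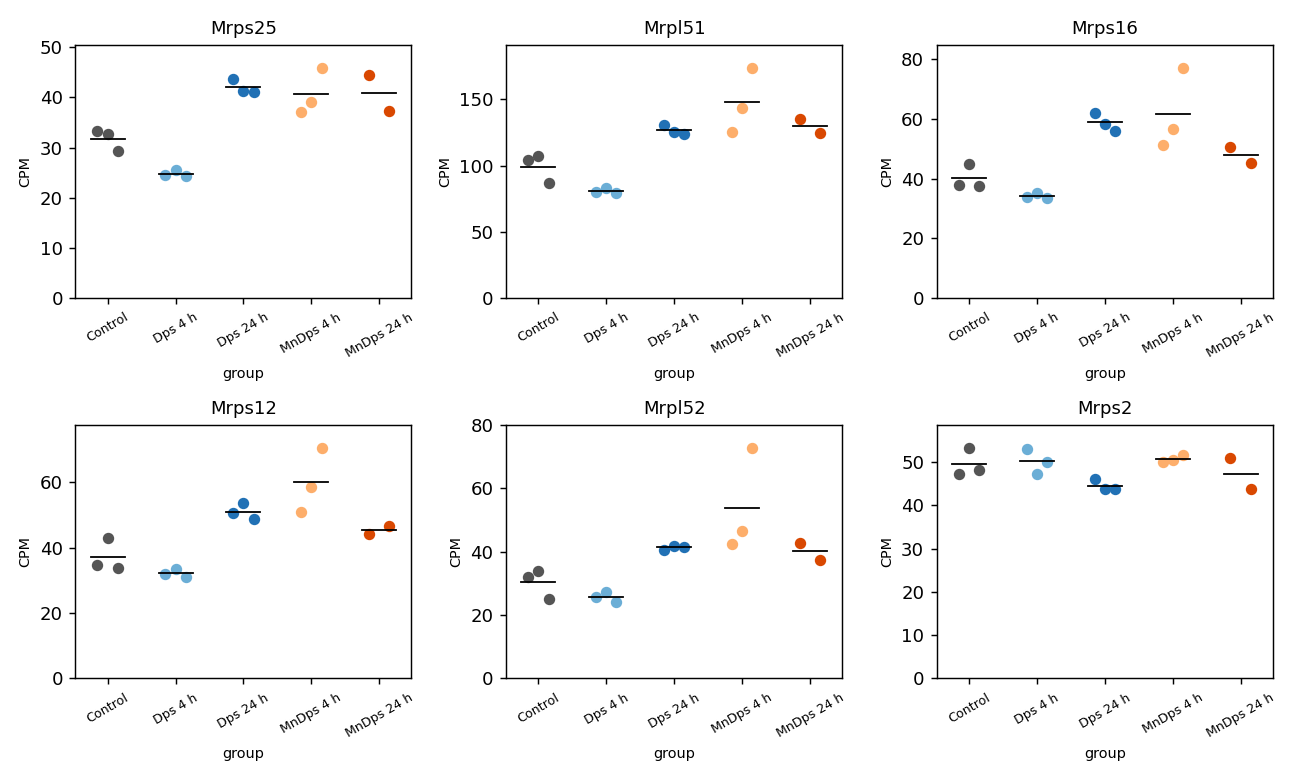
Level (CPM, vertical axes from 0) of 6 members in each library (points) by group, with group means as lines. In Mrps25, Mrpl51, Mrps16, Mrps12 and Mrpl52 every MnDps 4 h library lies above every Dps 4 h library, whereas the groups of Mrps2 overlap at 4 h.

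The members were then split by transcript length, and each band was set beside all tested genes of the same length. In MnDps at 4 h against control, the 49 members with transcripts up to 1647 bases had a median of 0.38 and the 2866 tested genes of that length 0.34. Corrected, the same members had −0.08, with 2 higher and 8 lower. Among all tested genes of any length 22.9% were higher as fitted, and corrected 16% were higher and 21.8% lower. The 13 members above 3421 bases had a median of 0.36, while the 5731 genes of that length had −0.24, and 11 of the 13 rose. Corrected, their median was 0.54 and 12 rose. In MnDps against Dps at 4 h the long members had a median of 0.58 against −0.28 for all genes of their length, and 12 of 13 rose, all but Mrps5. Among all tested genes of any length 20.8% rose. In Dps at 4 h against control both bands were negative, with −0.20 for the short members (all genes of that length −0.13) and −0.16 for the long (all genes 0.03). The long members are Mrpl51, Mrpl1, Mrpl35, Mrpl3, Mrps35, Mrpl15, Mrps26, Mrpl48, Mrps5, Mrpl19, Mrps17, Mrps25 and Mrpl17. Their corrected values rest on the annotated length, and whether the kidney uses these long transcripts was not tested. Across the 77 members, which share their libraries, Spearman's rho between log2 fold change and length in MnDps against Dps at 4 h was −0.35 as fitted and 0.57 corrected.

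**Figure D5:**
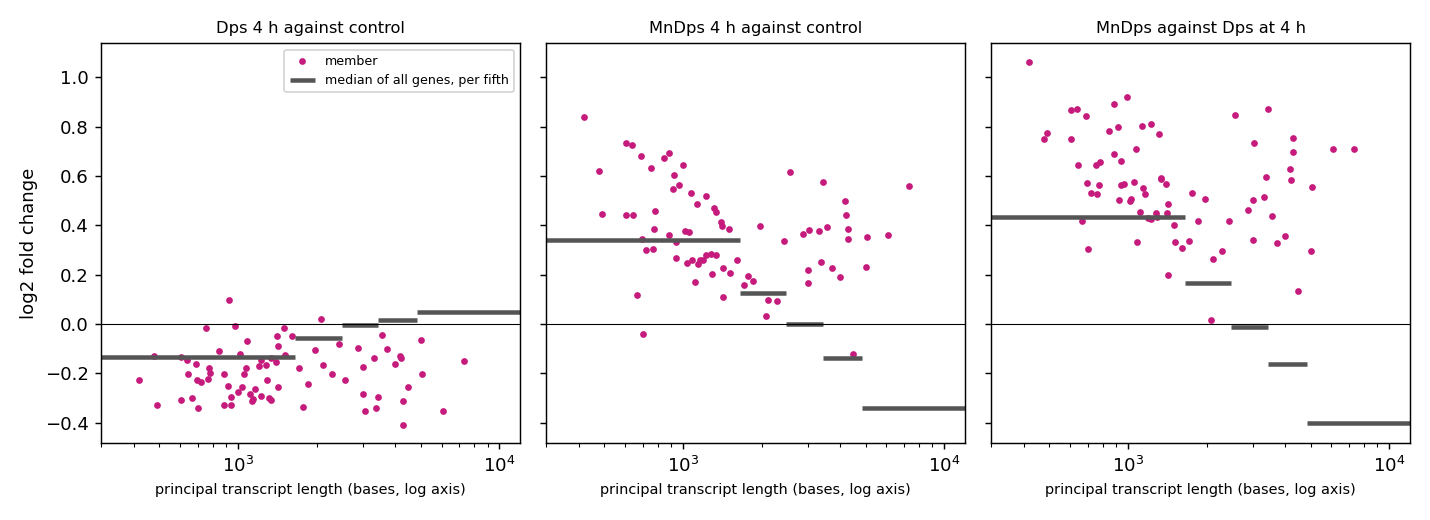
Log2 fold change (vertical axis) of the 77 members (points) against principal transcript length (bases, log axis) in 3 comparisons, with the median of all tested genes in 5 bins of length that hold equal numbers of genes (grey bars). In the middle and right panels the grey bars fall with length, to −0.34 in the last bin of MnDps 4 h against control, while long members stay above 0 except Mrps5 in the middle panel.

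The members were also split by symbol, which is close to but not the same as the subunit. In MnDps against Dps at 4 h, 47 of the 48 Mrpl genes rose with a median of 0.54 (25 corrected, 0.24), and 27 of the 29 Mrps genes with a median of 0.56 (18 corrected, 0.25). The share of all tested genes that rose was 20.8% (13.7% corrected). In Dps at 4 h against control, 6 Mrpl and 7 Mrps genes fell (23 and 15 corrected), with medians of −0.18 and −0.20. The share of all tested genes that fell was 6.27% (17.5% corrected). The 44 members with a bacterial counterpart and the 33 without had medians of 0.56 and 0.53 in MnDps against Dps at 4 h. The difference between these splits was not tested.

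Some members have roles that their symbols do not show. Mrps30 and Mrps18a sit in the large subunit in spite of their names, and Mrps18c, a relative of Mrps18a, in the small one. In MnDps at 4 h against control Mrps18c (0.73 ± 0.13) and Mrps30 (0.38 ± 0.10) rose and did so in the corrected fit too, whereas Mrps18a (0.36 ± 0.11, edgeR adjusted p = 0.0158) gave −0.16 corrected and lost its call without control replicate 1 or 3 or MnDps 4 h replicate 3. Mrps18b gave 0.26 ± 0.11 (edgeR adjusted p = 0.054). Mrps36 encodes an adaptor of the alpha-ketoglutarate dehydrogenase complex, an enzyme of the citric acid cycle, rather than a ribosome subunit. It fell after Dps at 4 h, from 23.6, 25.6 and 23.5 to 20.7, 16.8 and 20.0 CPM (−0.34 ± 0.10, edgeR adjusted p = 0.0354). After MnDps at 4 h it was at 20.6, 25.3 and 24.8 CPM and did not pass as fitted (−0.04), where 57 members rose. It fell in the corrected fit (−0.51 ± 0.11, edgeR adjusted p = 0.00168). Mrps2, the counterpart of the bacterial small subunit protein S2, was called in none of the 8 comparisons of groups as fitted. Its controls were at 47.3, 53.3 and 48.1 CPM, Dps at 4 h at 53.1, 47.4 and 50.1 and MnDps at 4 h at 49.98, 50.6 and 51.6. At the other end, Mrps25 and Mrpl13 were called in 6 of the 8 as fitted, and Mrps25 and Mrpl51 in 6 after correction.

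Exons of 21 members overlap those of another gene in the count table, for 17 of them on the opposite strand only, and the strand setting of the counting is not given in the sources used here. Mrps25 shares 4590 bases with Nr2c2 on the opposite strand. Nr2c2, a nuclear receptor gene, moved the other way, at −0.65 in MnDps at 4 h against control and −0.67 in MnDps against Dps at 4 h (edgeR adjusted p = 0.000328 and 0.000263). Of the opposite-strand partners called in MnDps against Dps at 4 h, 5 fell and 4 rose. Besides Nr2c2, those that fell were Rab6a (−0.49), which shares 708 bases with Mrpl48, Mapk8ip3 (−0.52, 1309 bases with Mrps34), Wdfy1 (−0.47, beside Mrpl44, which did not pass) and Gga3 (−0.38, beside Mrps7). Those that rose were Ndufs6 (0.91, 30 bases with Mrpl36), Ndufb5 (0.73, 616 with Mrpl47), Tcp1 (0.38, 141 with Mrpl18) and Mif4gd (0.33, 119 with Mrps7). Nme3 shares 763 bases with Mrps34 on the same strand and rose with it (0.83 against 0.80). The part of shared reads in these values was not tested. The same-strand partners of Mrps24, Mrps6 and Mrpl51 are Urgcp, Slc5a3 and Mir3098.

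Other genes of mitochondrial translation were read from lists for comparison. Of 6 mitoribosome proteins with other symbols, 5 rose in MnDps against Dps at 4 h as fitted and in the corrected fit, with medians of 0.69 and 0.59. The shares of all tested genes that rose were 20.8% and 13.7%. Gadd45gip1 (0.94 ± 0.11), Ict1 (0.68 ± 0.10), which releases stalled chains, and Dap3 (0.51 ± 0.07), a GTP-binding protein of the small subunit, were among them. Ptcd3, an RNA-binding protein of the small subunit, was the exception at −0.06 ± 0.07 (edgeR adjusted p = 0.517). It fell against control at 4 h after both nanocages (−0.23 after Dps and −0.29 after MnDps).

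Lists of factors that work with the ribosome had medians below the 0.55 of the members in MnDps against Dps at 4 h. Of 13 translation factors 6 rose (median 0.24; 3 corrected), of 23 assembly factors 12 rose and 1 fell (median 0.29; 7 and 1 corrected), of 17 mitochondrial tRNA synthetases 3 rose and 2 fell (median 0.04; 2 and 0 corrected), and of 16 genes that copy and express mitochondrial DNA 5 rose (median 0.09; 5 corrected). These lists have longer transcripts than the members, with medians of 1894 to 3336 bases. Of all tested genes 20.8% rose and 20.7% fell in that comparison (13.7% and 8.88% corrected). Pnpt1, a mitochondrial RNA-processing enzyme that interferon is known to induce, rose at 4 h after both nanocages, from 37.4, 33.5 and 36.6 CPM to 60.4, 62.2 and 58.1 after Dps (0.75 ± 0.07, edgeR adjusted p = 1.21e-06) and to 56.2, 55.6 and 60.9 after MnDps (0.68 ± 0.07, edgeR adjusted p = 3.21e-06). At 24 h it was below every control, at 29.3, 28.2 and 29.6 CPM after Dps (−0.31 ± 0.07, edgeR adjusted p = 0.0106).

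Of 10 regulators of mitochondrial genes, 1 (Pprc1, at 0.35) rose and 4 fell in MnDps at 4 h against control. Among all tested genes 22.9% were higher and 22.7% lower. Ppargc1a, the coactivator PGC-1alpha, was at 85.9, 74.9 and 96.1 CPM in controls and 52.4, 51.6 and 35.5 after MnDps at 4 h (−0.88 ± 0.13, edgeR adjusted p = 0.000109; −0.47 corrected). Gabpa, the DNA-binding subunit of GABP, went from 60.0, 52.5 and 59.7 to 37.7, 36.0 and 26.6 CPM (−0.78 ± 0.12, edgeR adjusted p = 9.85e-05; −0.46 corrected). In both genes the libraries did not overlap. Perm1 (−0.87 ± 0.16) and Yy1 (−0.26 ± 0.09, 0.02 corrected) fell too, while Nrf1 gave 0.17 ± 0.09 (edgeR adjusted p = 0.133). In the corrected fit Pprc1 rose and Ppargc1a, Gabpa, Perm1 and Esrra fell. After Dps at 4 h Ppargc1a gave −0.26 ± 0.13 and Gabpa −0.09 ± 0.11, with edgeR adjusted p of 0.186 and 0.659, whereas Perm1 fell (−0.65 ± 0.15). Of the 10, 1 rose then and 1 fell (8.33% and 6.27% of all tested genes). Pprc1 was at 13.7, 18.2 and 18.0 CPM in controls and 22.8, 27.2 and 24.5 after Dps at 4 h. After MnDps at 4 h it was at 19.4, 20.6 and 23.9. At 24 h none rose, while 3 fell after Dps and 4 after MnDps (10.4% and 8.39% of all tested genes lower). Mean Gabpa was 57.4 CPM in controls, 43.3 after Dps and 36.5 after MnDps at 24 h. Mean Ppargc1a was 85.6, 56.4 and 60.1.

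The cytosolic ribosome and the respiratory chain, with median transcripts of 886 and 823.5 bases, are given beside the members. In MnDps against Dps at 4 h, 76 of 77 tested cytosolic ribosome genes rose (median 0.78; 61 corrected, 0.31), and 71 of 79 nuclear genes of the respiratory chain (median 0.68; 42 higher and 2 lower corrected, 0.21). Of all tested genes 20.8% rose there (corrected, 13.7% rose and 8.88% fell). In Dps at 4 h against control 2 and 16 fell (medians −0.21 and −0.22; 45 and 59 corrected), beside 6.27% of all tested genes (17.5% corrected). In MnDps at 4 h against control 71 and 57 rose as fitted, and corrected 19 and 6 rose while 3 and 17 fell. Among all tested genes 22.9% rose as fitted, and corrected 16% rose and 21.8% fell. The differences between these lists and the members were not tested. Genes encoded in mitochondrial DNA were not analysed here.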

How the data were processed

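The authors deposited a table of raw counts of reads for each gene in 14 libraries. Per the labels' protocols, RNA was purified with a kit that removes genomic DNA, and stranded mRNA libraries were sequenced as paired reads. STAR, featureCounts and the mm10 build are named, per the submitters' processing notes, and of these the versions, annotation, strand setting and treatment of multi-mapping reads were not stated there. Libraries were grouped by the treatment and time in the labels. Counts were scaled by TMM and filtered by group, and one model of 5 group means was fitted with edgeR 4.0.16 in R 4.3.3. Its quasi-likelihood test was adjusted by Benjamini and Hochberg over all 14854 tested genes, with a threshold of 0.05. CPM values use the TMM library sizes, and a standard error is the absolute log2 fold change divided by the root of F.

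Transcript length and GC content came from the principal transcripts of GENCODE M21, which had a value for 96.5% of tested genes. The corrected fit used as an offset each library's spline trend (5 degrees of freedom each) of log2 CPM (prior count 2). The scripts were tested on simulated data. Named members are those with the largest rises and falls without overlap, those called in both fits with the smallest corrected p, a preset panel and the extremes of level. Mrps2, Mrps5, Mrpl36, Mrpl39, Mrps31, Mrpl2, Mrpl22, the neighbouring genes and others outside this rule were named after their values were seen. The members, marker lists (proximal tubule, thick ascending limb, collecting duct, podocyte, neutrophil, endothelial, macrophage, adipocyte, hepatocyte, T and B cell and skeletal muscle genes) and other lists were chosen with earlier results of these data known. The T and B cell and skeletal muscle lists were read but are not described above. Alternatives were DESeq2 1.42.0, limma voom 3.58.1, other size factors and filters, the compared groups alone and leaving out each library. A correction by the longest transcript and a term for the 3 libraries above 30000000 counts were chosen after seeing the data. No library was left out of the results as fitted.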

Additional observations from a re-analysis of the deposited data

Results flagged for a closer look

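The change from 4 h to 24 h differed between MnDps and Dps by a test of the difference itself (the edgeR interaction) for 73 of the 77 members, each lower for MnDps, where it was lower for 15.7% of all tested genes. In the fit corrected for length and GC content it was lower for 38 (10.8% of all genes), with a median of −0.30 in place of −0.70. The members of the preset panel that passed were Mrpl12 (−1.02, from 0.73 after Dps and −0.29 after MnDps, edgeR adjusted p = 0.000617), Mrpl44 (−0.55), Mrpl41 (−0.70), Mrpl11 (−0.83), Mrps12 (−1.06), Mrps22 (−0.69), Mrps16 (−1.14), Mrps18a (−0.72), Mrps18c (−1.01), Mrps30 (−0.51), Mrps36 (−0.45), Mrpl3 (−0.49) and Mrps34 (−0.85). Their edgeR adjusted p ran from 0.000531 for Mrps12 to 0.0406 for Mrps36. The value of Mrps30 missed the threshold without MnDps 24 h replicate 2 (−0.34) and when depth was a term (−0.46), and that of Mrps36 turned to 0.17 in the corrected fit. The call of Mrps36 was also lost without each of 8 of the 11 libraries in turn, namely Dps 4 h replicates 2 and 3, the 3 of Dps at 24 h, MnDps 4 h replicates 2 and 3 and MnDps 24 h replicate 1, with values from −0.47 to −0.34. Of the 13, Mrpl44, Mrpl41, Mrps22, Mrps18a, Mrps18c and Mrps36 did not pass in the corrected fit. No group has enough libraries for a test of single outlying libraries.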

How the results depend on the processing

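The length and GC correction moved most counts. With it, and with its longest-transcript form in second place, members lower after Dps at 4 h numbered 38 and 39. After MnDps at 4 h 19 and 27 were higher and 8 and 9 lower (median 0.042 and 0.11). After Dps at 24 h 14 and 16 were higher (median 0.044 and 0.077), and after MnDps at 24 h 2 and 3 higher and 2 and 2 lower, where the median turned from 0.13 to −0.05 and −0.013. In MnDps against Dps at 4 h 43 were higher under the first, with medians of 0.25 and 0.32. From 4 h to 24 h after Dps 1 was lower under the first (also 1 by voom), with medians of 0.26 and 0.31, and after MnDps 1 was higher under the first, with 8 and 9 lower and medians of −0.10 and −0.11. The interaction was lower for 38 and 44 (median −0.30 and −0.42). Corrected summed means were 4406 (control), 3760 (Dps 4 h) and 4663 CPM (Dps 24 h). Signs turned for Mrpl41 (−0.12 and −0.14), Mrps22 (−0.10) and Mrps18a (−0.16) in MnDps at 4 h against control, Mrpl41 (−0.057 and −0.069) in Dps at 24 h, Mrps18b (−0.10 and −0.12) and Mrps36 (−0.17 and −0.17) in MnDps against Dps at 4 h and Mrps36 (0.17 and 0.17) in the interaction. The correction's construction removes what follows length. No cause beyond that was tested.

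A term for the deep libraries left 0 members lower after Dps at 4 h, 18 higher after Dps at 24 h and 1 higher after MnDps at 24 h. With no count filter 6 were lower after Dps at 4 h and 1 in MnDps against Dps at 24 h. With only the groups compared these counts were 8 and 5, and 5 were lower in MnDps from 4 h to 24 h. DESeq2 and voom called 3 and 5 lower in MnDps against Dps at 24 h, and voom 10 higher after MnDps at 24 h. DESeq2 kept 198 of 201 results on their side of the threshold, other size factors 200 and a stricter filter 200. The cause was not tested.

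Leaving out each library gave these lowest and highest values. After Dps at 4 h 0 to 16 were lower (median −0.24 to −0.15), and after MnDps at 4 h 41 to 62 higher (0.25 to 0.42). After Dps at 24 h 7 to 38 were higher (0.21 to 0.30), and after MnDps at 24 h 0 to 12 (0.08 to 0.18). Between the nanocages 68 to 74 were higher at 4 h (0.43 to 0.61) and 0 either way at 24 h (−0.16 to −0.09). From 4 h to 24 h 60 to 65 rose after Dps (0.43 to 0.48) and 3 to 32 fell after MnDps (−0.29 to −0.16), and the interaction was lower for 62 to 73 (−0.76 to −0.60). No paired analysis was possible because the labels give no replicate numbers.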
